A study of Mus musculus with 4 samples.

Results

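The genes of the tricarboxylic acid (TCA) cycle and of pyruvate entry into it were examined in the inguinal fat pad of the mouse, a white depot under the skin. The set was taken as a list of 35 gene symbols grouped by function, and all 35 had a value among the 13677 genes of the deposited tables. It holds 16 cycle enzymes, 4 pyruvate dehydrogenase subunits, 4 pyruvate dehydrogenase kinases, 3 phosphatase genes, 2 subunits of the mitochondrial pyruvate carrier and 6 anaplerotic enzymes. RNA sequencing gave 4 libraries, 2 titled WT and 2 titled FLCNKO. The series describes the former as wildtype animals and the latter as lacking Flcn in adipose tissue. Flcn encodes folliculin, a tumour suppressor that acts on the mTOR pathway, and the series asks how it bears on the browning of fat. The sources used here give no Cre driver, deleted exon, sex or age, and no label ties a library to 1 animal. The p-values therefore measure the spread between these libraries, which may be technical.

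The TCA cycle runs in the mitochondrial matrix and oxidizes acetyl-CoA to carbon dioxide, passing the electrons to the respiratory chain. Pyruvate from glycolysis crosses the inner mitochondrial membrane through a carrier made of MPC1 and MPC2. The pyruvate dehydrogenase complex then turns it into acetyl-CoA. Kinases (PDK) switch that complex off by phosphorylation, and phosphatases (PDP) switch it on again. Anaplerotic enzymes refill cycle intermediates, with pyruvate carboxylase (Pcx) making oxaloacetate. In white adipocytes, citrate that leaves the mitochondria supplies carbon for fatty acid synthesis, and pyruvate carboxylase is abundant. Brown and beige adipocytes are rich in mitochondria and burn acetyl-CoA for heat.

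All values are the authors' deposited log2 expression values, and each log2 fold change subtracts the mean of the WT libraries from that of the 2 FLCNKO libraries. The depth behind the values is unknown. Library medians of 10.76 and highest values of 21.66 in all 4 point to scaling to shared quantiles, which no source used here states. The lowest values differed, at 2.37 in FLCNKO replicate 2 and 1 in the others. Flcn itself did not separate the groups, at 12.36 and 12.21 in WT against 12.35 and 12.12 in FLCNKO (log2 fold change -0.05, limma adjusted p = 0.852). The tissue holds several cell types and the deleted part of Flcn is not given, and why its level did not differ was not tested. These values do not show the loss of Flcn, and the groups are named by their titles throughout. White adipocyte markers were high in all 4 libraries, with a summed level of 21.05 to 21.09 on the log2 scale. That sum leans on the highest marker, Fabp4 (20.23 to 20.57). Of the 7 markers, 1 (Fabp4) had a log2 fold change above 0, against 50.4% of all genes, and 6 were below 0. Only Adipoq was lower in both FLCNKO libraries than in both WT libraries (-0.46, limma adjusted p = 0.185), as were 25.4% of all genes. The median absolute difference between libraries was 0.147 within WT, 0.247 within FLCNKO and 0.268 to 0.307 across the groups.

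Of the 35 genes, 30 had a mean above WT in the FLCNKO libraries, and 2 of them passed the test over all genes. The E1 subunit of oxoglutarate dehydrogenase (Ogdh) and the E2 subunit of pyruvate dehydrogenase (Dlat) rose, and 0 members fell (limma, adjusted p under 0.05). Over all 13677 genes, 1.59% passed in either direction and 0.98% passed as higher. Without adjustment, 22 of the 35 had p under 0.05 and were higher, against 12.1% of all genes, and 2 of the 35 were lower, against 10.3% of all genes. The groups did not overlap, with FLCNKO higher, for 25 members (71.4%, against 29.2% of all genes), and with FLCNKO lower for 4 (11.4%, against 25.4% of all genes). In the remaining 6 the groups overlapped. In whole tissue, more cells of a type and more RNA per cell cannot be told apart. The median log2 fold change of the members was 0.77, and that of all genes was 0.0046. With 1 library left out, the members' median lay between 0.63 (without FLCNKO replicate 1) and 0.94 (without FLCNKO replicate 2).

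**Figure D1:**
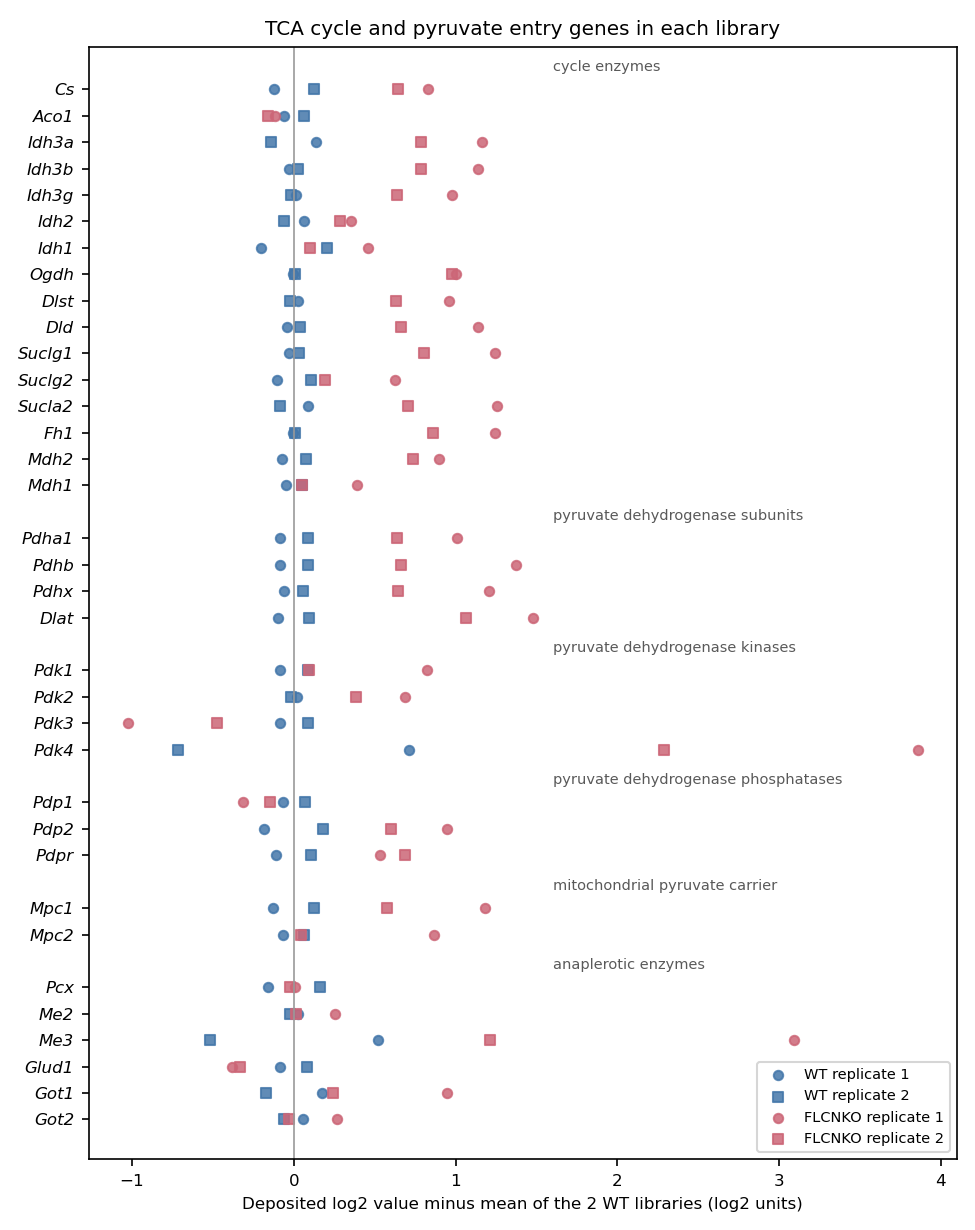
Deposited log2 value of each of the 35 genes minus its mean in the 2 WT libraries (horizontal axis, log2 units), with 1 point per library, circles for replicate 1 and squares for replicate 2. FLCNKO points lie right of both WT points for 25 genes and left of both for 4 (Aco1, Pdk3, Pdp1 and Glud1), and Pdk4 and Me3 have the widest spread.

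Among the cycle enzymes, the oxoglutarate dehydrogenase gene Ogdh (ENSMUSG00000020456), which encodes the subunit that decarboxylates oxoglutarate, differed by far more than its spread between replicates. Its values were 15.28 and 15.29 in WT against 16.29 and 16.26 in FLCNKO. Both FLCNKO libraries were above both WT libraries, and the SD was 0.0091 in WT and 0.0196 in FLCNKO (n = 2 each). Ogdh rose 1.99-fold (log2 fold change 0.99 ± 0.11, SE, n = 2 libraries per group; adjusted p = 0.0404 by limma). When a library was left out, the log2 fold change stayed between 0.98 and 1.01, but 0 members passed. The adjusted p of Ogdh was then 0.336 and 0.265 without the first and the second WT library, 0.103 without FLCNKO replicate 1 and 0.0615 without FLCNKO replicate 2. Without the mean-variance trend in limma the adjusted p was 0.14 for Ogdh and 0.144 for Dlat.

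The E2 gene Dlat (ENSMUSG00000000168) encodes the dihydrolipoamide acetyltransferase, the structural core of the pyruvate dehydrogenase complex. It had values of 13.60 and 13.79 in WT against 15.17 and 14.76 in FLCNKO. The lower FLCNKO library was still well above both WT libraries. Dlat rose 2.42-fold (log2 fold change 1.27 ± 0.17, SE, n = 2 libraries per group; adjusted p = 0.0478 by limma). The log2 fold change was 1.07 without FLCNKO replicate 1 and 1.48 without FLCNKO replicate 2. Its adjusted p was 0.32 and 0.246 without the first and the second WT library, 0.103 without FLCNKO replicate 1 and 0.0615 without FLCNKO replicate 2.

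The promoters of Ogdh and Dlat are shown because these are the members that passed the test. They are RefSeq windows on GRCm38.p6 of 300 bases, from 250 before to 50 after an annotated start site, and 32 of the 35 members matched the table by symbol. Short motifs were searched by exact match on both strands, and capitals mark a match. Ogdh has several annotated starts, and so more windows to search than Dlat. The window at chr11:6292308-6292607 (plus strand) holds GCGCATGC, part of the motif of the mitochondrial regulator NRF1, starting 15 bases before the start site. The upstream window at chr11:6291920-6292219 (plus strand) holds AAGGTCA, the core motif of estrogen-related and other nuclear receptors, on the minus strand, reading TGACCTT from base -5. The overlapping Ogdh window at chr11:6292329-6292628 holds the same GCGCATGC site, and the remaining Ogdh windows hold no match. These are not printed. The Dlat window at chr9:50659731-50660030 (minus strand) holds none of the searched motifs.
Ogdh, NRF1-type match: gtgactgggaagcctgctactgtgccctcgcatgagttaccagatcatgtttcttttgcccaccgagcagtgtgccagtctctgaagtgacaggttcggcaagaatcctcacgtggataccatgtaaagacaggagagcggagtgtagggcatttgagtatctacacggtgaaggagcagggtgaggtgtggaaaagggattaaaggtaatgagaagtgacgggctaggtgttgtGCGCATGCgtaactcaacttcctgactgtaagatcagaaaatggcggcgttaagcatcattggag
Ogdh, upstream start: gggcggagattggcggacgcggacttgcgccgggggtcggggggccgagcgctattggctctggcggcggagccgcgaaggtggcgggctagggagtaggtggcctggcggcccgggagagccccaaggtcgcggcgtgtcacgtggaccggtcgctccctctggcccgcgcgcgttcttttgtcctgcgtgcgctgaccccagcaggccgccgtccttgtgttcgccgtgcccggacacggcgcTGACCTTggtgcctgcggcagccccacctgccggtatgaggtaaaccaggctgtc
Dlat: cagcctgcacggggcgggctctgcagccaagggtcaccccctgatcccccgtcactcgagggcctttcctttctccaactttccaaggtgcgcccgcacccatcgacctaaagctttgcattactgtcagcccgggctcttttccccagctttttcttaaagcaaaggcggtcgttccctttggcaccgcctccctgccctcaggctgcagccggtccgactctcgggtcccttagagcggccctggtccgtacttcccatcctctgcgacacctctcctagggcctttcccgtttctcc

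These matches were rare among the members and among all promoters. GCGCATGC occurred in the windows of 2 of 32 members (Ogdh and Glud1, 6.25%) and of 3.05% of all genes in the table. AAGGTCA, which was added after the other motifs had been searched, occurred in 2 of 32 (Ogdh and Got1) and in 5.38% of all genes. The longer receptor motif TCAAGGTCA, which contains AAGGTCA, and TCACGTGA, an E-box that the MiT/TFE factors can bind, occurred in 0 of 32 members and in 0.466% and 1.12% of all genes. A match describes letters in these windows and is not a measured binding site.

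Among the cycle enzymes that are members, only Ogdh passed, though most of the others were higher in FLCNKO. The succinate dehydrogenase genes are not members and are described below with the other pathway genes. Of the 16 cycle enzymes 1 passed, as higher (0.98% of all genes). Without adjustment, 12 had p under 0.05 with higher values (12.1% of all genes) and 0 with lower values (10.3% of all genes). The median log2 fold change of the 16 was 0.81. Citrate synthase (Cs), which condenses acetyl-CoA with oxaloacetate and is commonly used as a gauge of mitochondrial content, had values of 15.54 and 15.78 in WT against 16.49 and 16.30 in FLCNKO. The groups of Cs did not overlap (log2 fold change 0.74 ± 0.15, SE; limma adjusted p = 0.0774). Fumarase (Fh1), which hydrates fumarate to malate, was 13.58 and 13.59 in WT against 14.83 and 14.44 in FLCNKO. Its log2 fold change of 1.05 ± 0.16 came close to the threshold (adjusted p = 0.053). Mitochondrial malate dehydrogenase (Mdh2), which closes the cycle, was 14.83 and 14.98 against 15.80 and 15.64 (0.82 ± 0.13; adjusted p = 0.0549).

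The NAD-dependent isocitrate dehydrogenase, the oxidative enzyme of the cycle, is built from 3 gene products, and their differences were close to each other. The catalytic subunit gene Idh3a had a log2 fold change of 0.98, Idh3b of 0.96 and Idh3g of 0.81, with limma adjusted p-values of 0.0672, 0.0556 and 0.0668. Idh2, the NADP-dependent mitochondrial enzyme, differed less, at 14.06 and 13.94 in WT against 14.35 and 14.28 in FLCNKO (0.32 ± 0.11; adjusted p = 0.18). The remaining parts of the oxoglutarate dehydrogenase complex are the succinyltransferase Dlst and the dihydrolipoamide dehydrogenase Dld, which the pyruvate dehydrogenase complex shares. Their log2 fold changes were 0.79 and 0.90, and neither passed (adjusted p = 0.0672 and 0.0769).

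Succinyl-CoA ligase pairs a common alpha subunit, Suclg1, with a beta subunit that sets whether ATP (Sucla2) or GTP (Suclg2) is made. Suclg1 was 13.55 and 13.61 in WT against 14.82 and 14.38 in FLCNKO (log2 fold change 1.02 ± 0.17; limma adjusted p = 0.0604). Sucla2 was 14.09 and 13.92 against 15.26 and 14.71 (0.98 ± 0.21; adjusted p = 0.0824). Suclg2 was 12.48 and 12.69 against 13.21 and 12.78, a smaller difference (0.41 ± 0.18; adjusted p = 0.263) whose lower FLCNKO library lay just above the WT values. Suclg2 shares 20.7% of its 31-base stretches with transcripts of other genes, so its reads may have been split among them.

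The cytosolic enzymes on the list had a median log2 fold change nearer to 0 than the other members. Cytosolic aconitase (Aco1), which doubles as the iron-responsive RNA-binding protein IRP1, was 14.74 and 14.86 in WT against 14.69 and 14.64 in FLCNKO (log2 fold change -0.14 ± 0.11; limma adjusted p = 0.531). Idh1, the cytosolic NADP-dependent isocitrate dehydrogenase, was 14.59 and 15.00 against 15.25 and 14.90, and its groups overlapped (0.28; adjusted p = 0.474). Mdh1, the cytosolic malate dehydrogenase of the malate-aspartate shuttle, was 15.75 and 15.85 against 16.20 and 15.85 (0.22; adjusted p = 0.473). With the cytosolic aminotransferase Got1 (0.59), the 4 cytosolic members had a median log2 fold change of 0.25, against 0.81 for the other 31. The ranges were -0.14 to 0.59 for the 4 and -0.75 to 3.07 for the 31. Of the 31, the mitochondrial Pcx, Me2 and Got2 were also near 0. This split was made with the values known and was not tested.

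All 4 pyruvate dehydrogenase subunit genes were higher in both FLCNKO libraries than in both WT libraries, as were 29.2% of all genes. Dlat was the 1 that passed, where 0.98% of all genes passed as higher. Pdha1, the E1 alpha subunit that carries the regulatory phosphorylation sites, was 15.47 and 15.64 in WT against 16.57 and 16.20 in FLCNKO (log2 fold change 0.83 ± 0.17, SE; limma adjusted p = 0.0798). Pdhb, the E1 beta subunit, and Pdhx, the binding protein that anchors E3, had log2 fold changes of 1.02 and 0.92 (adjusted p = 0.104 and 0.0893). The 4 genes had log2 fold changes from 0.83 to 1.27, with a median of 0.97. Pdha1 and Pdhb share 15.8% and 17.9% of their 31-base stretches with transcripts of other genes.

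**Figure D2:**
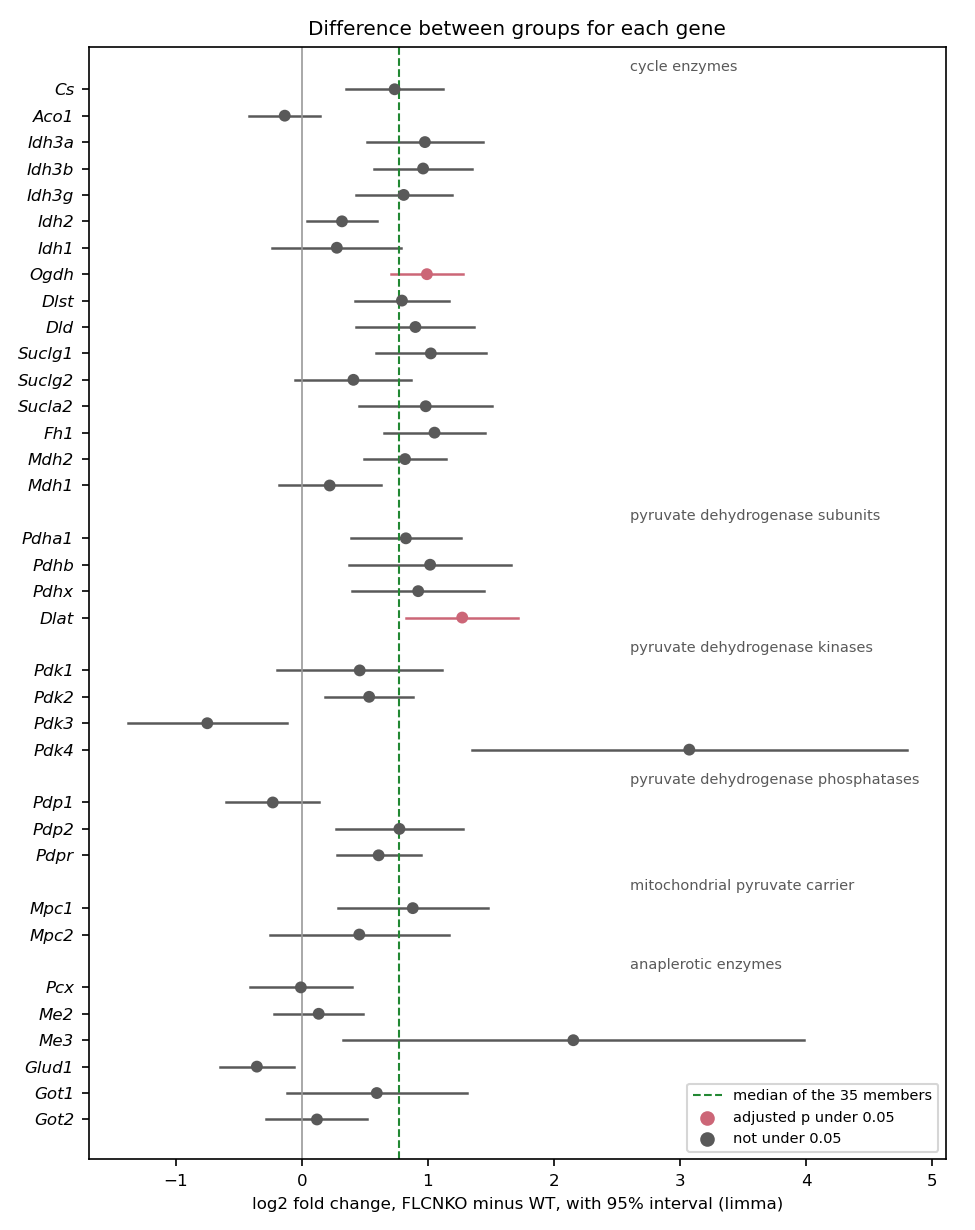
log2 fold change (FLCNKO minus WT, horizontal axis) of each of the 35 genes with its 95% interval from limma, red where the adjusted p is under 0.05, and the members' median of 0.77 as a dashed line. The pyruvate dehydrogenase subunits and most cycle enzymes cluster around that line, Ogdh and Dlat are red, and the interval of Pdk4, from 1.35 to 4.80, is among the widest.

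The kinases that switch pyruvate dehydrogenase off did not move together. Pdk4, the isoform known to be induced by fasting and glucocorticoids, was 15.03 and 13.60 in WT against 18.17 and 16.60 in FLCNKO. Both FLCNKO libraries were above both WT libraries, yet the replicates within each group lay over 1 log2 unit apart. Its log2 fold change of 3.07 ± 0.67 (SE, n = 2 per group), 8.41-fold, was the highest of the 35 and ranked 46 among all genes, and it did not pass (limma adjusted p = 0.0877). Leaving out WT replicate 1 gave Pdk4 a log2 fold change of 3.79, and leaving out WT replicate 2 gave 2.36. It was 2.29 without FLCNKO replicate 1 and 3.86 without FLCNKO replicate 2.

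Pdk2, the widely expressed isoform, was 13.35 and 13.32 in WT against 14.02 and 13.72 in FLCNKO (log2 fold change 0.53 ± 0.14; limma adjusted p = 0.111). Pdk1, a target of the hypoxia factor HIF-1, was 12.11 and 12.29 against 13.03 and 12.29, so that 1 FLCNKO library was level with WT (0.46 ± 0.26; adjusted p = 0.361). Pdk3 went the other way, at 9.33 and 9.50 in WT against 8.39 and 8.94 in FLCNKO (-0.75 ± 0.25; adjusted p = 0.171). It had the lowest log2 fold change of all 35 members. Per kilobase of annotated exon, Pdk4 had the highest level of the 4 kinases in every library, at 13.22 and 11.79 in WT against 16.36 and 14.79 in FLCNKO on the log2 scale. Pdk2 followed at 11.69 and 11.66 against 12.36 and 12.06, then Pdk1 between 9.15 and 10.07 and Pdk3 between 7.03 and 8.15. In WT replicate 2 the levels of Pdk4 and Pdk2 per kilobase (11.79 and 11.66) were closer than the Pdk4 levels of the WT libraries were to each other.

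The phosphatase genes were also split. Pdp1, the calcium-sensitive catalytic subunit, was 10.34 and 10.47 in WT against 10.09 and 10.26 in FLCNKO (log2 fold change -0.23; limma adjusted p = 0.413). Pdp2, the other catalytic subunit, was 10.02 and 10.39 against 11.15 and 10.81 (0.77; adjusted p = 0.109). The regulatory subunit gene Pdpr was 11.85 and 12.07 against 12.49 and 12.64 (0.61; adjusted p = 0.0836). For Pdp2 and Pdpr both FLCNKO libraries lay above both WT libraries (29.2% of all genes), and for Pdp1 both lay below (25.4% of all genes).

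The pyruvate carrier genes were higher on average without passing. Mpc1 was 10.71 and 10.97 in WT against 12.02 and 11.42 in FLCNKO (log2 fold change 0.88 ± 0.23; limma adjusted p = 0.116). Mpc2 was 13.29 and 13.42 against 14.22 and 13.40, and its groups overlapped (0.46 ± 0.28; adjusted p = 0.4). The Mpc2 difference rested on FLCNKO replicate 1, and it was 0.05 without that library. Mpc1 shares 30.8% of its 31-base stretches with transcripts of other genes, so its level is uncertain.

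The anaplerotic enzymes had a median log2 fold change of 0.13, and 0 of 6 passed. At an unadjusted limma p under 0.05, 1 of 6 was higher (Me3), beside 12.1% of all genes. Likewise 1 of 6 was lower (Glud1), beside 10.3% of all genes, so both counts were near the background. Pyruvate carboxylase (Pcx) was 16.58 and 16.90 in WT against 16.75 and 16.72 in FLCNKO. Both FLCNKO values lay between the WT values, and the difference was -0.01 with a 95% interval from -0.41 to 0.40 (limma adjusted p = 0.985). Its sign depended on single libraries, with 0.15 without WT replicate 2 and 0.0087 without FLCNKO replicate 2. Glutamate dehydrogenase (Glud1), which links glutamate to oxoglutarate, was 14.72 and 14.88 in WT against 14.42 and 14.47 in FLCNKO. Both FLCNKO values of Glud1 were below WT (log2 fold change -0.36 ± 0.12; adjusted p = 0.165).

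Malic enzymes convert malate to pyruvate, and Me2 and Me3 are the mitochondrial forms. Me3 was low and variable, at 7.38 and 6.34 in WT against 9.95 and 8.08 in FLCNKO (log2 fold change 2.15 ± 0.71; limma adjusted p = 0.172). The Me3 difference ranged from 1.22 (FLCNKO replicate 1 left out) to 3.09 (FLCNKO replicate 2 left out). Me2 was 10.92 and 10.87 against 11.15 and 10.91, a difference of 0.13 with overlapping groups (adjusted p = 0.622). The aspartate aminotransferases exchange amino groups between aspartate and glutamate. Cytosolic Got1 was 9.95 and 9.61 in WT against 10.73 and 10.02 in FLCNKO (0.59; adjusted p = 0.287). Mitochondrial Got2 was 10.57 and 10.46 against 10.79 and 10.49 (0.12; adjusted p = 0.704), and it was -0.03 without FLCNKO replicate 1. Got2 shares 30.9% of its 31-base stretches with transcripts of other genes.

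Genes that serve the same reaction were also compared within each library, where a shift common to all genes of that library cancels. Scaling to shared quantiles depends on the level of a gene and need not cancel. The levels are not per length here, so only the change of each difference between the groups is read. With 2 libraries against 2, the exact two-sided permutation test cannot give a p below 0.33, and 6 of the 7 differences tested reached that value. The exception was Idh2 minus Idh1, at -0.53 and -1.06 in WT against -0.90 and -0.61 in FLCNKO (exact p = 1). Its change of 0.04 turned to -0.22 without WT replicate 2 and -0.10 without FLCNKO replicate 2. Mdh2 minus Mdh1 went from -0.92 and -0.87 to -0.39 and -0.21, so the mitochondrial form gained on the cytosolic form in both FLCNKO libraries by 0.60 on average. Got2 minus Got1 went the other way, from 0.62 and 0.85 to 0.06 and 0.46.

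Suclg2 minus Sucla2 was -1.61 and -1.23 in WT against -2.06 and -1.94 in FLCNKO, a change of -0.57 towards the ATP-forming subunit. Mpc1 minus Mpc2 changed by 0.42, from -2.58 and -2.46 to -2.20 and -1.99. Pdk4 minus Pdk2 was 1.67 and 0.28 in WT against 4.15 and 2.88 in FLCNKO, a change of 2.54. Me3 minus Me2 was -3.53 and -4.52 against -1.19 and -2.83, a change of 2.02. In these last pairs the replicates of a group lay farther apart than in the others.

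**Figure D3:**
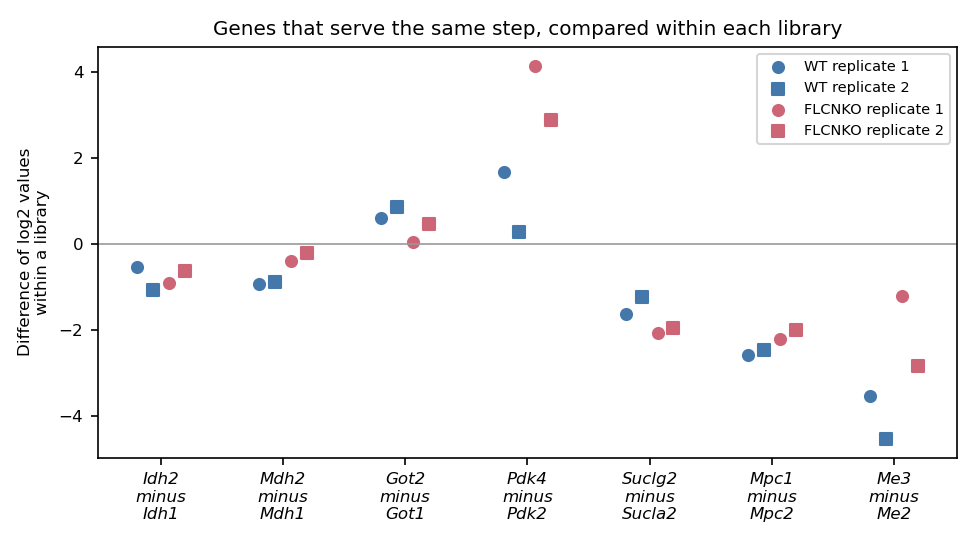
Difference between the log2 values of a pair of genes within each library (vertical axis, log2 units, not per length) for 7 pairs, with 1 point per library. FLCNKO points lie apart from WT points for every pair except Idh2 minus Idh1, and Pdk4 minus Pdk2 shows the largest shift, from 1.67 and 0.28 to 4.15 and 2.88.

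A list of 29 other genes of the same pathways gave 2 that rose and 0 that fell (limma, adjusted p under 0.05). Of all genes, 1.59% passed in either direction. The median log2 fold change of the 29 was 0.48. Unadjusted, 13 of 29 had p under 0.05 and were higher (12.1% of all genes), and 3 of 29 were lower (10.3% of all genes), so the count of lower genes was at the background. Sdhb, the iron-sulphur subunit of succinate dehydrogenase, was 14.03 and 14.01 in WT against 15.05 and 14.83 in FLCNKO (log2 fold change 0.92 ± 0.12; limma adjusted p = 0.0478). Ldhb, the lactate dehydrogenase subunit that favours pyruvate formation, was 12.31 and 12.31 in WT against 14.04 and 13.57 in FLCNKO (1.49 ± 0.18; adjusted p = 0.0419). Neither passed with any 1 library left out or with no mean-variance trend, where 0 genes of the whole table passed in limma. Ldhb shares 33% of its 31-base stretches with transcripts of other genes. The 4 succinate dehydrogenase subunit genes were higher in both FLCNKO libraries than in both WT libraries, as were 29.2% of all genes. Their log2 fold changes ran from 0.77 (Sdha) to 0.92 (Sdhb), with a median of 0.88.

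The genes that feed and drain the cycle in this list of other pathway genes, which are not members, had no common direction. The 10 other anaplerotic and cataplerotic genes had a median log2 fold change of 0.13. ATP citrate lyase (Acly), which splits exported citrate for lipid synthesis, had the highest, 2.04 (limma adjusted p = 0.0829), and the alanine aminotransferase gene Gpt2 the lowest, -0.73 (adjusted p = 0.138). The 5 carboxylate and amino acid carriers had a median of -0.21, from 0.78 for the citrate carrier Slc25a1 (adjusted p = 0.189) to -0.80 for the dicarboxylate carrier Slc25a10 (adjusted p = 0.0509). The monocarboxylate transporter gene Slc16a1, which moves lactate and pyruvate across the cell membrane, had 1.29 (adjusted p = 0.064), and its relative Slc16a3 had -1.27 (adjusted p = 0.278). The lactate dehydrogenase gene Ldha had 0.23 (adjusted p = 0.443).

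The replicates of a group also differed in these genes. FLCNKO replicate 1 was above replicate 2 for 31 of 35 members (48.6% of all genes), and WT replicate 1 was above WT replicate 2 for 11 (45.6% of all genes). Both WT libraries lay below FLCNKO replicate 1 for 30 members (39.3% of all genes) and below FLCNKO replicate 2 for 25 (44.9% of all genes). FLCNKO replicate 1 also had the higher level of brown and beige adipocyte markers, with list medians of 13.33 and 11.50 in the FLCNKO libraries and 10.22 and 9.23 in WT. The summed level of those 8 markers was 14.32 and 13.68 in WT against 17.64 and 16.35 in FLCNKO on the log2 scale. Of the 8 markers, 7 had a log2 fold change above 0 (50.4% of all genes). The groups did not overlap, with FLCNKO higher, for 6 of the 8 (29.2% of all genes). Those of Ucp1 and Dio2 overlapped, with Ucp1 at 10.6 and 7.4 in WT against 13.8 and 10.1 in FLCNKO. The part of brown and beige adipocytes in the members' differences was not tested.

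Markers of skeletal muscle differed widely between single libraries. The medians of the 10 markers were 13.19 and 10.55 in WT against 12.33 and 5.32 in FLCNKO, and the summed levels were 17.01, 14.04, 15.88 and 13.37. FLCNKO replicate 2 had the lowest muscle median and summed level, though not the lowest Acta1. Its Acta1 was 13.32, against 14.50 and 12.21 in WT and 13.29 in FLCNKO replicate 1. Each other muscle marker was lowest in FLCNKO replicate 2. The lowest muscle value was 2.37, for Myh2 in FLCNKO replicate 2, where the lowest value of any gene was also 2.37. Markers of macrophages (8 of 8) and fibroblasts (7 of 7) were lower in both FLCNKO libraries than in both WT libraries, as were 25.4% of all genes. Their medians were 14.38 and 14.18 against 13.48 and 13.33 for macrophages and 17.02 and 16.87 against 15.68 and 15.49 for fibroblasts. The part of muscle, macrophages and fibroblasts in the members' differences was not tested. The 36 complex I subunits of the respiratory chain had a median log2 fold change of 0.69 beside 0.77 for the members, a difference that was not tested. Without FLCNKO replicate 2 the order turned, at 0.956 for complex I and 0.944 for the members. Both FLCNKO libraries lay above both WT libraries for 35 of the 36 subunits and 25 of the 35 members (29.2% of all genes).

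**Figure D4:**
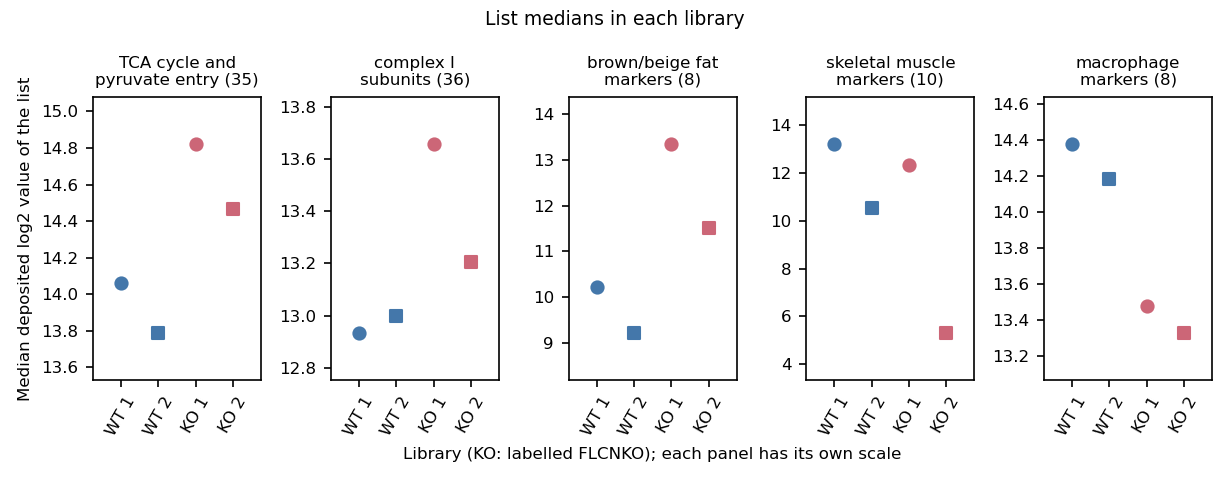
Median deposited log2 value (vertical axis, its own scale in each panel) of the 35 members and of 4 other lists in each library, with 1 point per library. The members and complex I are highest in FLCNKO replicate 1 (14.82 and 13.66), as are the brown and beige markers, while muscle is lowest in FLCNKO replicate 2 (5.32) and macrophage markers are lower in both FLCNKO libraries.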

How the data were processed

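RNA of inguinal fat was sequenced in 4 libraries (2 WT, 2 FLCNKO), grouped by their titles. The authors deposited 1 table of log2 expression values per library. The submitters' processing notes name STAR, limma and mm9 and no versions; annotation, counter, strand setting and filter: not given in the sources used here. Whole reads could not be recovered. The values look like shared quantiles, an inference from the values alone; if so, a shift common to most genes cannot be seen. Symbols were matched by Ensembl identifier (13592 of 13677). The names come from another build, and no gene coordinates are given. Promoter windows are RefSeq's on GRCm38.p6. Exon lengths and shared stretches of 31 bases come from the GENCODE annotation of GRCm38.

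limma 3.58.1 in R 4.3.3 was fitted to all 13677 genes with group as the only term and a mean-variance trend (residual degrees of freedom 2, prior 3.09). Tests were two-sided, with Benjamini-Hochberg adjustment over all genes and a threshold of 0.05. No filter was applied. The fit was tested on simulated data. The members, gene lists and tests were chosen with earlier results of these data known. Values in every library are given for members past the threshold, for the 4 highest and 4 lowest log2 fold changes, for the 7 compared pairs and for genes chosen by role; further members were added in the writing. Of the other pathway genes, 1 is not reported here. Alternatives were repeated quantile normalization, median centring, a minimum mean of 8, other variance moderation, a replicate block and leaving out each library. Figures were drawn with matplotlib 3.10.9.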

Additional observations from a re-analysis of the deposited data

How the results depend on the processing

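Other variance moderation, the filter and the replicate block leave the log2 fold changes as they are, so only the rescalings and leaving out a library could turn a sign. Under those, 33 of the 35 members kept their direction. The exceptions were Pcx, from -0.1667 without WT replicate 1 to 0.1522 without WT replicate 2 (0.0087 without FLCNKO replicate 2), and Got2, from -0.0289 without FLCNKO replicate 1 to 0.2694 without FLCNKO replicate 2. The change of Idh2 minus Idh1 was -0.2248 without WT replicate 2 and -0.1044 without FLCNKO replicate 2, and up to 0.3061 without WT replicate 1. The median log2 fold change of the members lay between 0.63 and 0.94. Repeated quantile normalization and median centring left 2 members called. With 1 library left out, limma called 0 genes higher, 0 lower and 0 members, with fewer samples in the fit. In those fits 29 to 31 of the 35 members had a log2 fold change above 0, against 48.7% to 54% of all genes. Without the mean-variance trend 0 genes were higher, 0 lower and 0 members called, and the cause was not tested. At an unadjusted p under 0.05 in that limma fit, 20 members and 1508 of all 13677 genes were higher. With a minimum mean of 8, which leaves out Me3, 187 genes were higher, 138 lower and 5 members were called, the added ones being Idh3b, Fh1 and Mdh2, with fewer genes tested. Robust moderation called 201 genes higher and 143 lower, and added Fh1. With the replicate number as a block (replicate block), 401 genes were higher and 441 lower, and 12 members were called, among them Pdk4 and Me3. Nothing in the labels says that equal numbers share an animal, batch or day. The deviations of same-numbered libraries from their group means correlated at 0.363 across genes, which with 2 pairs is a hint at most. The depth behind the values is unknown and 2 libraries a group limit every test.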
